A study of Mus musculus with 8 samples.

Results

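Among the regions that carry H3K27ac in HPC-7 cells, a set of 5 kb bins gained coverage after 2 h of lipopolysaccharide (LPS) in cells with either isoform of the transcription factor CEBPA. These gaining bins were 706 of the 31321 bins that held an H3K27ac peak in all 4 deposited interaction lists, and of 75822 bins that appeared in any list. They were chosen by the read coverage of the bins: the log2 of LPS over untreated (UT) coverage was centred on its median over the 31321 bins, separately for p30 and for p42, and bins at 0.35 or more in both isoforms were kept. A value of 0.35 on this scale is a 1.27-fold gain over the median bin. The gains below are therefore values that the bins were selected on, given as a description with no test. The bins past the same value in p30 numbered 2864 (9.14% of 31321), those in p42 numbered 2006 (6.4%), and those in both numbered 706 (2.25%), which is 24.7% of the p30 gains and 35.2% of the p42 gains.

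HPC-7 is a mouse haematopoietic progenitor line with very little CEBPA of its own. The lines labelled HPC-7_p30 and HPC-7_p42 carried the short leukaemia-associated isoform p30 or the full-length isoform p42 from a retroviral vector and not from the Cebpa locus. The study's methods describe p30 HPC-7 and p42 HPC-7 as carrying fusions to ERT2, which enter the nucleus once 4-hydroxytamoxifen is added, and say that cells with such fusions received it before an experiment. They also describe flag-tagged constitutive versions in HPC-7, and the HiChIP protocol itself does not repeat which version was used. Each line was left untreated or given LPS, which makes 4 groups, p30 UT, p30 LPS and the same pair for p42. LPS was from Escherichia coli and was given at 100 ng/mL for 2 h, and each group had 2 replicates. The replicates of a group were deposited as 1 pooled list, so no spread between replicates was measured, no test between conditions was possible, and every difference below compares those 4 lists. The p30 and the p42 comparison share no library.

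H3K27ac marks active promoters and enhancers, and the HiChIP assay ligates DNA ends that lie close together around this mark, which gives the coverage of each bin and the contacts between bins. A loop here is a pair of bins listed by the authors at a q-value under 0.01. LPS is sensed by the receptor TLR4, which switches on the transcription factors NF-κB and AP-1 within minutes and, through interferon made in response, the STAT factors later. Many genes that these factors switch on encode inhibitors of the same pathways, such as IκBα (Nfkbia) and A20 (Tnfaip3), which end the response.

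The bins were chosen without their sequence, but the stretches shown here were picked among them for holding motif matches, so that they illustrate the matches and say nothing of how common these are. Matches to the NF-κB motif (10 letters, searched by its degenerate consensus on both strands), AP-1 (TGANTCA), C/EBP (TTGCNNCAA) and the interferon-stimulated response element ISRE (GAAANNGAA) are in capitals, and all other bases are in lower case. A match is a stretch of letters and not a measured binding site. The promoters of Tnfaip3, Il6, Bst2, Gbp2, Tlr2 and Traf1, genes of the LPS response that start within gaining bins and hold a match, are given from 250 bases before to 30 bases after the start of the canonical transcript, read 5′ to 3′ along the gene in GRCm39:

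Tnfaip3 promoter, chr10:18891157-18891436, minus strand: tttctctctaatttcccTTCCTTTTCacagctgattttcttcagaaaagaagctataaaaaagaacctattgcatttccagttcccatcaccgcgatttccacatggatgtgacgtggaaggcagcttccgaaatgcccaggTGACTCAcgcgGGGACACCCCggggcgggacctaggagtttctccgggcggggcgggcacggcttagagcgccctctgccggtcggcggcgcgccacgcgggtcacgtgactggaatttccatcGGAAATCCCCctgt
Il6 promoter, chr5:30217862-30218141, plus strand: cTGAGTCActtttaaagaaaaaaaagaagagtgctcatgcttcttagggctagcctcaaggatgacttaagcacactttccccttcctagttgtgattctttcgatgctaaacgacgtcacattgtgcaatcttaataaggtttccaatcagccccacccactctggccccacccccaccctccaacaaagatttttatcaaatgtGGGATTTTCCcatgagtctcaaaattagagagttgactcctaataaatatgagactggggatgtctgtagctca
Bst2 promoter, chr8:71990085-71990364, minus strand: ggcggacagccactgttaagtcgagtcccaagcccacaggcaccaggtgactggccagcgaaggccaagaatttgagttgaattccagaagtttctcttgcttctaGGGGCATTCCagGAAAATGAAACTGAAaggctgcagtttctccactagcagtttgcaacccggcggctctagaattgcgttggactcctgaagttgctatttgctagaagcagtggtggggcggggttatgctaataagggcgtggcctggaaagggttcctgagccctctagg
Gbp2 promoter, chr3:142326099-142326378, plus strand: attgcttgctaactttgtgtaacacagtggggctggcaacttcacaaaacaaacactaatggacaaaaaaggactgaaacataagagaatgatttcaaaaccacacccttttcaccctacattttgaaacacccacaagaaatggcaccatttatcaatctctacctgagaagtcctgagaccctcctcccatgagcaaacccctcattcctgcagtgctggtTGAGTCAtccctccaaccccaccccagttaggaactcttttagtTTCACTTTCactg
Tlr2 promoter, chr3:83749045-83749324, minus strand: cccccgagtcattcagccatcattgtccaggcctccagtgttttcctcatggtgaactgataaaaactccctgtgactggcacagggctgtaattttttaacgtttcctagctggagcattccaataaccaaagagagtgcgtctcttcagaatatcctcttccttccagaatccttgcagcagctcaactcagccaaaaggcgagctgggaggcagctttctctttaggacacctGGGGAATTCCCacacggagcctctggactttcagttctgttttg
Traf1 promoter, chr2:34848146-34848425, minus strand: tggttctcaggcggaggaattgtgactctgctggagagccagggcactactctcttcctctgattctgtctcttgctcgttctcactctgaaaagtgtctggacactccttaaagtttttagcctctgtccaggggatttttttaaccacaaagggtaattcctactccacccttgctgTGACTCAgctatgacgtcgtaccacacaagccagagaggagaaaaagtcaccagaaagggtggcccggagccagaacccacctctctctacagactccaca

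Windows of 120 bases from 7 gaining bins without a protein-coding start follow, read along the plus strand. The first 5 come from the bins with the largest gains in both isoforms, and those near Gas7 and upstream of Tnfaip3 were added because their windows held several matches; each window was placed where NF-κB, AP-1 and C/EBP matches were densest.

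Bin downstream of Ets2, chr16:95529298-95529417: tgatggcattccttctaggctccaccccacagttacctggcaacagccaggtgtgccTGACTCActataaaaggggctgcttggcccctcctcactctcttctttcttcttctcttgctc
Bin near Nfe2l2, chr2:75561838-75561957: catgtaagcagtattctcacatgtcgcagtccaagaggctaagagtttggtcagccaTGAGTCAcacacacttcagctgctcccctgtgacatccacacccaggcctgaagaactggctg
Bin upstream of Mir146, chr11:43276015-43276134: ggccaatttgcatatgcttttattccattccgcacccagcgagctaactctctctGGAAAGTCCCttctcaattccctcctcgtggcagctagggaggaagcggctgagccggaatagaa
Bin looped to Rasgef1b, chr5:99511108-99511227: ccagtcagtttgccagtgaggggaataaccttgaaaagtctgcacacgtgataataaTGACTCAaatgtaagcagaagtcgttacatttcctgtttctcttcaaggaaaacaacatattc
Bin looped to Acsl5, chr19:55281080-55281199: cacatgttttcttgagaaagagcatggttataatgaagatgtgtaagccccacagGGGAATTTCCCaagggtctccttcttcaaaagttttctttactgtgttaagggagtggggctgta
Bin near Gas7, chr11:67455140-67455259: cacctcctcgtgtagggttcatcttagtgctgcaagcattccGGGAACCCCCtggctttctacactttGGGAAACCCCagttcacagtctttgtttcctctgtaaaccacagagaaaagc
Bin upstream of Tnfaip3, chr10:18956868-18956987: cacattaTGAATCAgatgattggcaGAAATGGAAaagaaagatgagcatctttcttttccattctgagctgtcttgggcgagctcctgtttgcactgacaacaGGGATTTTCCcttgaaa

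The Tnfaip3 promoter held 2 NF-κB matches, an AP-1 match and an ISRE match, and the window 65 kb upstream of Tnfaip3 held an NF-κB, an AP-1 and an ISRE match. The Il6 promoter held an NF-κB and an AP-1 match, and the Bst2 promoter 2 overlapping ISRE matches beside an NF-κB match. In the Tlr2 promoter and in the window looped to Acsl5, 2 NF-κB matches overlapped to form 1 run. The bin beside Ets2 with the largest gain of all held no NF-κB match and 1 AP-1 match over its 5 kb.

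**Figure D1:**
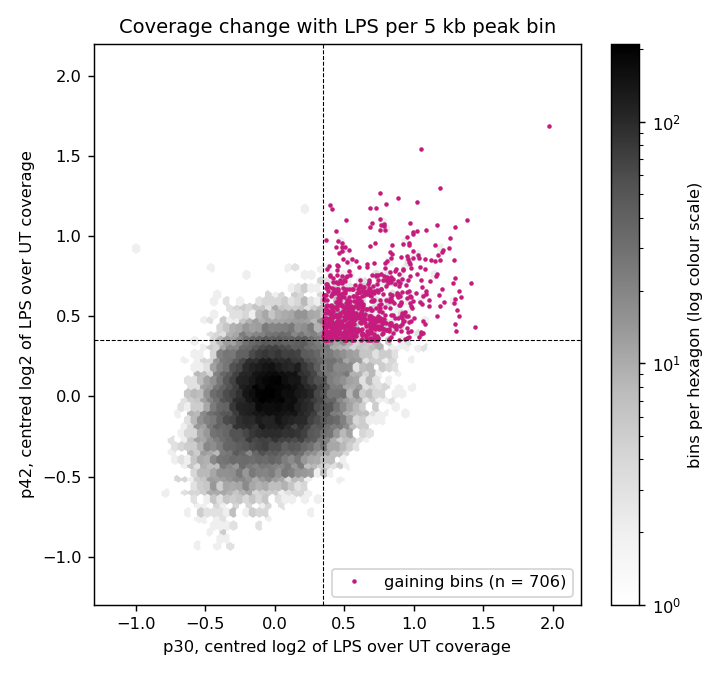
Change in coverage with LPS of the 31321 peak bins in p30 (horizontal) and p42 (vertical), as the log2 of LPS over UT coverage centred on the median bin. Grey hexagons count all bins on a log colour scale, pink points are the 706 gaining bins, and the dashed lines mark 0.35; the point at the upper right is the bin 25 kb downstream of the Ets2 start (1.97 and 1.69).

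The gain is relative to the median bin, and the lists differed in depth. The lists held 78591 to 158233 loops, and the median coverage of the 31321 bins was 3066 reads before and 2839 after LPS in p30 and 3749 before and 2466 after LPS in p42. The median bin thus had a log2 change of -0.11 in p30 and -0.60 in p42 as deposited. At the gaining bins the median was 2535 reads before and 3670 after LPS in p30 and 3083 before and 3040.5 after LPS in p42. All 706 gaining bins had more reads after LPS than before it in p30, but in p42 only 253 of 706 (35.8%) did, while the others lost less than the median bin. Among all 31321 bins the share with more reads after LPS was 32.6% in p30 and 1.21% in p42. Whether the shift of the median comes from sequencing depth or from H3K27ac itself cannot be told apart in these lists, and neither can fewer responding cells and less signal per cell.

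On the centred scale the median gain of the 706 bins was 0.61 in p30 (1.52-fold, 95% interval of the median 0.58 to 0.63) and 0.53 in p42 (1.44-fold, 0.51 to 0.55). These intervals, from order statistics, and those of shares below (Wilson) treat each bin, loop or gene as a separate draw. Neighbouring bins are not separate, so the intervals are too narrow, and they do not cover the spread between replicates. A centred gain of 1 or more was seen in 62 gaining bins in p30 and in 29 in p42. The counting error of a bin was small beside the threshold, with a median of 0.037 in both isoforms and at most 0.146. The gain was larger in p30 at 444 bins and larger in p42 at 262, with a median difference (p42 minus p30) of -0.06. This split depends on the centring, since scaling by the number of modelled contacts in place of the median bin shifts each bin by 0.20 in p30 and by -0.34 in p42. The gain was then larger in p30 at 701 of the 706 bins and at all 34 named start bins, where median centring gave 22 of 34, so the order of the isoforms at a bin is given below for median centring unless stated. In untreated cells the log2 of p42 over p30 coverage, relative to the median bin, had a median of 0.00 (-0.04 to 0.04) over the gaining bins. Single bins differed in both directions, with quartiles of -0.25 and 0.26, against -0.20 and 0.21 over all peak bins. After LPS the median was slightly lower in p42 (-0.06, -0.11 to -0.03). The quartiles were then -0.34 and 0.18, against -0.17 and 0.17 over all peak bins. With the scaling by modelled contacts, 185 bins passed the value in both isoforms, of which 155 were among the 706. Just inside the threshold lay the bins chr6:82690001-82695000 (0.51 in p30 and 0.35 in p42) and chr11:49945001-49950000 (0.35 and 0.38), and just outside it chr2:11340001-11345000 (0.48 and 0.35, below the threshold before rounding). Over all 31321 bins the changes in p30 and p42 correlated with r = 0.28 (Pearson) and rho = 0.18 (Spearman), as a description over bins that share libraries and neighbours.

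Gaining bins held the start of a protein-coding gene less often than all peak bins. Of the 706, 293 (41.5%, 37.9 to 45.2) were intergenic, against 18.7% of all peak bins, and 66 (9.35%, 7.42 to 11.7) held such a start, against 17.6%. With genes of all types the gap was smaller, at 24.8% against 29.7%. Exons without a start were found in 31.3% of gaining bins and in 43.2% of all, and introns in 17.8% and 20.5%. The median distance to the nearest start was 21.7 kb (19.3 to 23.8) for gaining bins and 12.6 kb for all, and 26.9% of gaining bins against 13.3% of all lay over 50 kb from a start. This was not particular to them, since losing bins had a median of 17.9 kb and p42-alone bins one of 29.0 kb, with 31.8% over 50 kb. The 476 bins that lost coverage by the same amount in both isoforms were also more often intergenic than all bins (35.5%), with 12.0% at a gene start. The bins that passed the value in 1 isoform alone differed from those in both: 26.1% of the 2158 p30-alone bins held a gene start, and 5.23% of the 1300 p42-alone bins did, of which 20.7% were intergenic.

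**Figure D2:**
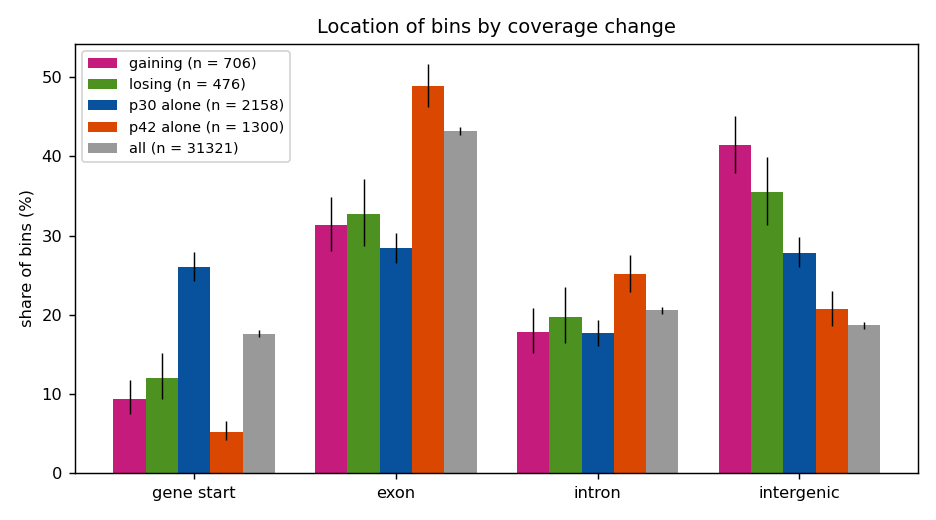
Share of bins (%) that hold the start of a protein-coding gene, else an exon, else an intron, else none of these, for gaining bins, bins losing coverage in both isoforms, bins past the value in p30 or in p42 alone, and all peak bins. Error bars are 95% Wilson intervals; the intergenic share was 41.5% of gaining bins and 18.7% of all bins.

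The bin with the largest gain lay in an intergenic stretch 25 kb downstream of the start of Ets2, an ETS-family transcription factor gene, at chr16:95525001-95530000. Its coverage was 1396 reads in p30 UT and 5076 in p30 LPS, and 2164 in p42 UT and 4601 in p42 LPS. Both LPS lists were thus above both UT lists even as deposited, and the centred gains were 3.93-fold in p30 and 3.23-fold in p42. The bin was looped to the Ets2 start, and the loops it took part in numbered 1 before and 3 after LPS in p30 and 2 before and 8 after LPS in p42. The start of Ets2 was itself in a gaining bin, with 2040 and 2838 reads in p30 UT and LPS and 2828 and 3349 in p42 UT and LPS. All 5 peak bins from the Ets2 start to this bin gained. A second group of 3 gaining bins lay 130 to 140 kb downstream, where the highest p42 gain was 1.27, and the next bins at 145 to 160 kb were at 0.87 to 1.09 in p42 but at 0.16 to 0.28 in p30.

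The next largest gain without a protein-coding start was at chr2:75560001-75565000, 28 kb from the start of Nfe2l2, which encodes NRF2, the regulator of the oxidative stress response. This bin had 1961 reads in p30 UT and 4136 in p30 LPS, and 2703 in p42 UT and 4387 in p42 LPS. It was looped to the starts of Nfe2l2 and Hnrnpa3, and it holds the start of Gm13656, a long noncoding RNA gene. The third, chr11:43275001-43280000, had 2451 reads in p30 UT and 5919 in p30 LPS, and 2196 and 3110 in p42. Its nearest protein-coding start was that of Pttg1 at 40 kb, and no loop reached any protein-coding start. The bin and its gaining neighbour lie 9.71 and 4.71 kb upstream of the hairpin of Mir146 (chr11:43265224-43265288, minus strand), which encodes miR-146a, a microRNA known to restrain TLR signalling through Irak1 and Traf6. This locus was looked up after its values were seen, and the bin that holds the hairpin appeared in none of the lists. The mature strand, from the RefSeq table of build GRCm38.p6, has its seed, bases 2 to 8, in capitals:

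miR-146a-5p: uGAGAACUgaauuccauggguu

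The remaining distal bins at the top of the ranking were tied to genes by loops or lay within gene bodies. The bin chr5:99510001-99515000, in an intron 112 kb from a start, was looped to Rasgef1b, a Ras exchange factor that macrophages induce with TLR ligands. Its coverage was 2230 reads in p30 UT and 4636 in p30 LPS, and 2428 and 3353 in p42. At chr19:55280001-55285000, in an exon where the genes Acsl5 and Zdhhc6 overlap, coverage was 2266 and 5149 in p30 and 2507 and 3433 in p42, and this bin was looped to Acsl5, which activates long-chain fatty acids. For each of these 2 bins, as for the first 3, both LPS values were above both UT values. Also among the first 8 were 2 bins within Pde4d, a cAMP phosphodiesterase gene, with gains of 1.05 and 1.02 in p30 and 1.54 and 1.21 in p42, 205 and 210 kb from the nearest canonical start and with no loop to one.

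**Figure D3:**
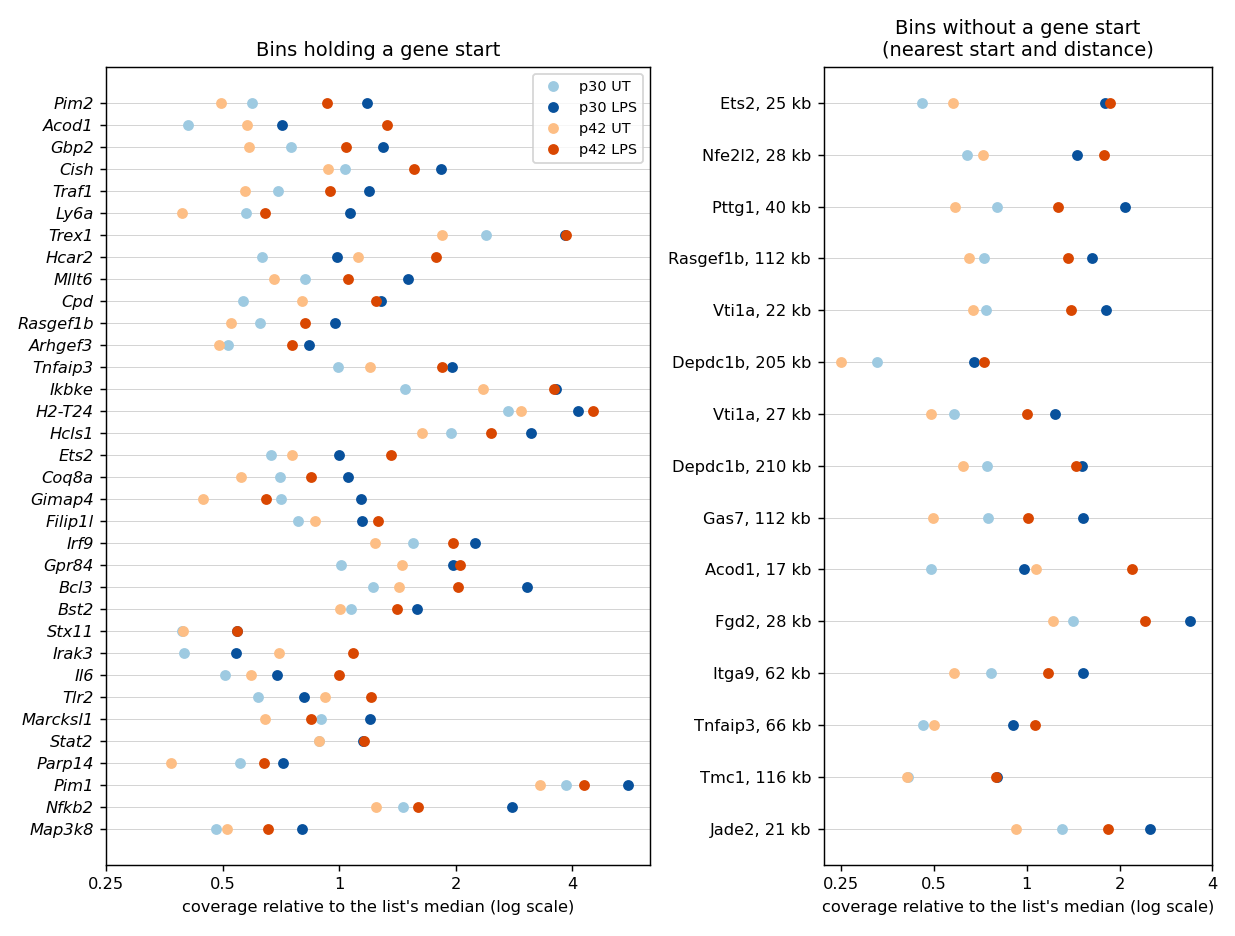
Coverage in the 4 lists (points) of the gaining bins that hold the start of a named gene (left) and of the 15 gaining bins without a gene start that gained most (right, labelled by the nearest start and its distance). Values are reads divided by the list's median over all peak bins, on a log scale; in each row the dark LPS points lie above the pale UT points of the same isoform, which the choice of bins fixed.

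Of the 6232 protein-coding genes that start in a peak bin, 67 (1.08%) started in a gaining bin. The lists of LPS-response genes used here hold 219 genes, of which 218 had a match in the annotation and 136 started in a peak bin. Of these 136, 20 (14.7%) started in a gaining bin. By list, these were 5 of 17 NF-κB pathway genes (29.4%), 5 of 18 interferon genes (27.8%), 5 of 38 genes of cytokines, receptors and other LPS-induced proteins (13.2%), 4 of 31 genes of a list of feedback and other signalling regulators (12.9%), 1 of 21 immediate early genes and 0 of 12 AP-1 genes. None of 15 granulocyte genes, 12 erythroid and megakaryocyte genes or 54 ribosomal protein genes did. The lists were chosen with results of these data known, so that these shares are counts beside the share of all genes. The counts depend on the centring: with the lists scaled by modelled contacts, 6 of the 136 response genes (Acod1, Cish, Gbp2, Il6, Parp14 and Traf1) and 12 of all 6232 genes started in a bin past the value in both isoforms. By list these were 1 NF-κB gene, 2 interferon genes, 2 cytokine genes and 1 feedback gene.

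The NF-κB genes that started in gaining bins encode the subunit p100/p52 (Nfkb2), the nuclear co-regulator Bcl3, the kinase IKKε (Ikbke), the adaptor Traf1 and the deubiquitinase A20 (Tnfaip3). At the Tnfaip3 start, coverage was 3041 reads in p30 UT and 5549 in p30 LPS, and 4492 in p42 UT and 4557 in p42 LPS, which is 1.97-fold and 1.54-fold above the median bin. At Ikbke it was 4535 and 10327 in p30, and 8811 and 8845 in p42. Here the p42 values as deposited were nearly equal, and the p42 gain (1.52-fold) is almost wholly relative to the median bin. Bcl3 had 3748 and 8675 reads in p30 and 5360 and 4993 in p42, a gain of 2.50-fold in p30 and 1.41-fold in p42. Traf1 had 2134 and 3383 reads in p30 and 2140 and 2328 in p42. Nfkb2 had 4486 and 7950 reads in p30 and 4661 and 3932 in p42, and was one of the members nearest to the threshold (0.36 in p42).

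Among the interferon genes, Gbp2, a guanylate-binding GTPase of cell-autonomous immunity, had 2294 reads in p30 UT and 3685 in p30 LPS, and 2188 and 2564 in p42. Irf9 and Stat2, which encode transcription factors of the type I interferon response, were both members: Irf9 had gains of 0.53 in p30 and 0.67 in p42, and Stat2 gains of 0.38 in each. Parp14, an ADP-ribosyltransferase induced by interferon, had gains of 0.37 in p30 and 0.80 in p42, or 0.57 and 0.46 with modelled contacts, which turns their order, and Bst2, which tethers virions to the cell surface, 0.57 and 0.48. Outside the lists, the start of Trex1, a DNA exonuclease that clears cytosolic DNA, had 7332 and 10892 reads in p30 and 6909 and 9489 in p42, so that both LPS values were above both UT values. The neighbouring Ly6a and Ly6e, which encode GPI-anchored surface proteins, started in gaining bins of 1 cluster.

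Of the cytokine list, 5 genes were members. Acod1, which makes itaconate in activated macrophages, had 1249 reads in p30 UT and 2014 in p30 LPS, and 2167 and 3277 in p42, the largest p42 gain among the 67 gene starts in gaining bins (2.30-fold). Il6, the gene of interleukin 6, had 1550 and 1958 reads in p30 and 2217 and 2467 in p42, a gain of 1.36-fold in p30 and 1.69-fold in p42. With modelled contacts the order of the isoforms at Il6 turned (log2 gains of 0.65 in p30 and 0.42 in p42). Gpr84, a fatty acid receptor of myeloid cells, gained 1.95-fold in p30 and 1.42-fold in p42. Tlr2 (0.40 and 0.39) and Marcksl1 (0.42 and 0.39) were close to the threshold in both.

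The list named feedback holds inhibitors and other regulators of signalling, and those of its genes that start in gaining bins were Cish, Irak3, Stx11 and Map3k8. Cish, which encodes a suppressor of cytokine signalling, had 3163 reads in p30 UT and 5198 in p30 LPS, and 3512 and 3844 in p42. Irak3, whose product blocks the IRAK kinases downstream of TLRs, had gains of 0.45 in p30 and 0.64 in p42. Map3k8, the kinase TPL2 that carries the TLR signal to ERK, which is a forward step and not feedback, lay next to the threshold in p42 (0.73 in p30 and 0.35 in p42). Pim1, a serine/threonine kinase induced by cytokines, was the member of the immediate early list, with 11811 and 15795 reads in p30 and 12414 and 10554 in p42. Its relative Pim2 had the largest gain of the 67 starts by the weaker isoform, from 1823 to 3357 in p30 and from 1858 to 2293 in p42. Of the 20 gene starts with the largest gains in both isoforms, the others were those of Hcar2, a receptor for niacin and ketone bodies, the MHC class Ib gene H2-T24, Gimap4, Hcls1, Cpd, Rasgef1b, Arhgef3, Mllt6, Coq8a and Filip1l, with gains of 0.55 to 1.18 in p30 and 0.54 to 0.66 in p42. H2-T24 and the Ly6 and Gimap genes belong to families of related genes, and whether reads were shared between relatives in mapping was not measured.

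The start bins of the 12 AP-1 genes measured, none of them a gaining bin, had a median change of 0.30 in p30 and -0.04 in p42, with 10 above 0 in p30 and 5 in p42. Over the 136 response genes the medians were 0.30 and 0.02, and over all 6232 genes 0.07 and -0.13. Of these 12, 5 (41.7%; Atf3, Batf, Fosl2, Jdp2 and Maff) were looped to a gaining bin, where 9.47% of all 6232 genes held or were looped to one.

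Loops added genes that do not start in a gaining bin. Of the 706 bins, 525 (74.4%) were looped to the start of at least 1 protein-coding gene, and 648 genes were reached in all. Of the gaining bins, 137 (19.4%, 16.7 to 22.5) held or were looped to the start of a response gene, against 5.17% of all peak bins, 4.20% of losing bins, 10.4% of p30-alone bins and 4.85% of p42-alone bins. Bins of 1 run can reach the same gene and were counted separately, and the gene lists were chosen with results of these data known. By gene, 43 of 136 response genes starting in peak bins (31.6%) held or were looped to a gaining bin, against 9.47% of all 6232. The share that held or was looped to any protein-coding start was not higher than among all bins (77.1% against 79.9%). By position alone, the nearest start was that of a response gene for 16.9% (14.3 to 19.8) of gaining bins and for 3.11% of all. With starts in the bin alone the share was 2.83% against 0.431%, and with loops present in all 4 lists 9.35% against 1.92%.

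Pim1 was looped to 17 gaining bins over all lists, Spred1 to 16, Tnfaip3 to 13 and Nfkbia to 10. Spred1, which encodes an inhibitor of Ras signalling to ERK, did not start in a gaining bin (0.32 in p30 and -0.07 in p42), and its partners lay 105 to 220 kb upstream. It was looped to 9 of them before and 14 after LPS in p30 and 12 before and 9 after LPS in p42. The start of Nfkbia gained in p30 alone (0.58 and -0.13), while 7 of the 8 peak bins in a 40 kb stretch around it gained in both, so that the start bin was the exception. It was looped to 4 gaining bins before and 8 after LPS in p30 and 7 before and 8 after LPS in p42. The chemokine genes Ccl3, Ccl4 and Ccl9 were each looped to 6 gaining bins, Ccl6 to 3, Ccl5 to 2, and the other named targets were Swap70 (3), Cflar (2) and Jdp2 (2). Nfkbiz and Ppp1r15a also had 2 and were left out of the 10 by alphabetical order. Il6 was looped to 5 gaining bins, with 0 before and 2 after LPS in p30 and 0 before and 5 after LPS in p42, so that no such loop was listed before LPS.

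Gaining bins formed runs. Of the 706, 423 (59.9%, 56.3 to 63.5) were directly next to another gaining bin, against 48.3% for losing bins among themselves, 54.6% for p30-alone bins and 37.5% for p42-alone bins. Neighbouring bins share the width of 1 acetylated domain, so the 706 bins are not 706 separate elements. Joined where their starts were at most 20 kb apart, which bridges gaps of up to 15 kb between bins, they made 344 clusters, of which 192 were single bins and 28 held 5 or more (205 bins together). With gaps of up to 20 kb bridged, a setting chosen after seeing the data, there were 334 clusters, and the largest held 20 bins over 145 kb at Fgd2 and Pim1 (chr17:29590001-29735000), ahead of 18 upstream of Spred1.

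With the first setting, the cluster with most bins was the 120 kb stretch upstream of Spred1 (chr2:116730001-116850000), where all 18 peak bins gained, with medians of 0.65 in p30 and 0.48 in p42. Its 2 strongest bins had 3856 and 7763 reads in p30 and 5784 and 6878 in p42, and 5358 and 10757 in p30 and 7735 and 8390 in p42. No gene starts there, and 16 of the 18 bins were looped to Spred1 and to no other gene. The second (chr17:29590001-29665000, 14 of 14 peak bins) overlaps the downstream part of the Fgd2 gene body and its flank, and the Fgd2 start lies outside it. All 14 were looped to Pim1, which lies further downstream, and 6 more gaining bins lay around the Pim1 start. The bin with the most reads in this run went from 9652 to 17476 in p30, with 10027 and 10423 in p42.

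The third run (chr19:9895001-9955000, 12 of 12 peak bins) lay between Incenp and Fth1, which encodes the heavy chain of the iron store ferritin. Its nearest bin was 7.51 kb from the Fth1 start, and 9 gaining bins were looped to that start over 20 to 65 kb. Gains there were even, from 0.43 to 0.71 in p30 and from 0.39 to 0.72 in p42. The fourth (chr7:19535001-19590000, 11 of 11) contains Bcl3, and its bins gained more in p30 (median 1.00) than in p42 (0.56). The fifth (chr15:74790001-74870000, 10 of 12) spans Ly6e, Ly6i and Ly6a with medians of 0.67 and 0.52. Shorter runs upstream of Tnfaip3 (8 of 8 peak bins, 0.74 and 0.77), at Cish (8 of 9) and at Adora2a (8 of 10), an adenosine receptor gene, followed.

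**Figure D4:**
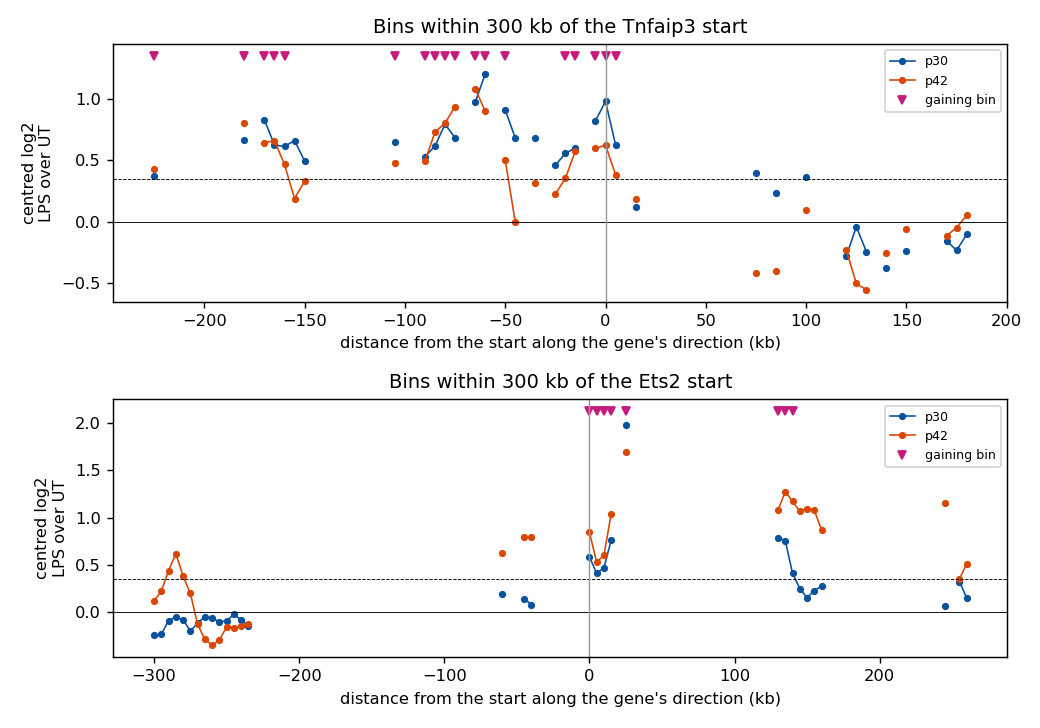
Centred log2 of LPS over UT coverage in p30 and p42 of the peak bins within 300 kb of the Tnfaip3 start (top) and the Ets2 start (bottom), by distance along the gene's direction in kb; lines join neighbouring bins and triangles mark gaining bins. At Tnfaip3 all 18 gaining bins lay between 225 kb upstream and 5 kb downstream of the start, and at Ets2 the largest value was 25 kb downstream.

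Around Tnfaip3, 18 of the 35 peak bins within 300 kb gained, all of them between 225 kb upstream and 5 kb downstream of the start. The bin 60 kb upstream had 1386 reads in p30 UT and 2950 in p30 LPS, and 2144 and 2637 in p42 (1.20 and 0.90), and its neighbour at 65 kb, whose sequence is shown above, gained 0.97 and 1.08. The peak bins more than 100 kb downstream had values from -0.55 to 0.05 over both isoforms.

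Partners of gaining bins tended to gain as well. Of the 2828 peak bins looped to a gaining bin, 385 (13.6%, 12.4 to 14.9) were gaining bins themselves, against 2.26% of all peak bins that take part in loops. The share was 4.08% among the partners of p30-alone bins, 6.33% among those of p42-alone bins and 0.329% among those of losing bins. A loop's contacts count in the coverage of both its bins, and gaining bins lie in runs. These values are therefore not independent of the choice of bins. The 2443 partners that were not members had a median change of 0.14 in p30 (0.13 to 0.16) and 0.09 in p42 (0.08 to 0.10), where all partners were close to 0. At 50 kb or more the medians were 0.12 and 0.04, and 42.3% of these partners were above 0 in both isoforms, against 25.8% of all. Gaining bins reached as far as others, with a median loop length of 50 kb against 45 kb.

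In loops present in all 4 lists, contacts were higher after LPS where the ends gained. A bin's contacts are part of its coverage, so these values are not independent of the choice of bins. The 29840 such loops with no gaining end had a median centred log2 of LPS over UT contacts of -0.01 in both isoforms. The 993 loops with 1 gaining end had 0.36 in p30 (0.32 to 0.39) and 0.42 in p42 (0.38 to 0.45), and the 199 loops with both ends in gaining bins had 0.64 (0.58 to 0.72) and 0.66 (0.62 to 0.73). As deposited, the contacts in these 199 loops summed to 7599 before and 11688 after LPS in p30 and 9468 before and 10503 after LPS in p42.

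The number of loops called at gaining bins depended on the list. Loop calls also depend on the coverage by which the bins were chosen, so these numbers are a description with no test. The median per gaining bin was 2 before and 5 after LPS in p30 and 5 before and 4 after LPS in p42, where all peak bins had 3, 4, 6 and 3. In p30 573 of 706 gaining bins (81.2%) had more loops after LPS, against 49.7% of all bins, and in p42 171 (24.2%) did, against 4.52%. Summed over the gaining bins, loops after LPS were 1.79 times those in UT in p30 and 0.845 times in p42, and over all bins 1.18 and 0.546 times. With each list reduced to its 78591 loops of smallest q-value, the ratio at gaining bins was 1.59 in p30 and 1.67 in p42, and 1.03 and 0.985 over all bins. The p42 ratio thus depended on the loops and bins counted, and it was also above 1 (1.08) at the 185 bins that gained with modelled contacts.

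Loops listed in both LPS lists and in neither UT list numbered 2861, and 330 of them (11.5%, 10.4 to 12.8) had an end in a gaining bin. Of the 10690 loops in both UT lists alone, 118 (1.10%, 0.923 to 1.32) did, and of the 31032 in all 4 lists 3.84%. Among the LPS loops were those from the Cish start to a gaining bin 10 kb away (95 contacts in p30 and 68 in p42), from Nfkbia to a gaining bin at 10 kb (50 and 56), from Bcl3 at 15 kb (54 and 34), and from Pim1 at 25 kb (45 and 32). A loop from the Nfkb2 start to a bin at 20 kb that was not a member had 31 and 24 contacts. No contact number is given for pairs that a list leaves out, and such a loop may have been just past the caller's threshold. Because loop calls depend on coverage, the shares of LPS and UT loops at gaining bins are not independent of the choice of bins.

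The NF-κB motif was more frequent in gaining bins than in all peak bins. Shares for bins past the value in 1 isoform alone were not counted. Of the 640 gaining bins without a gene start, 49.1% (45.2 to 52.9) held at least 1 match, against 37.5% of all 25814 such bins and 41.5% (36.9 to 46.3) of the 419 losing ones. The mean was 0.817 matches per gaining bin and 0.548 per bin among all, a ratio of 1.49. Median GC content was 45.05% in gaining bins, 46.0% in all and 48.5% in losing bins. In 3 equal classes of GC content the ratio was 1.82, 1.90 and 1.22 from the lowest to the highest. In the highest class 58.5% of gaining bins held a match, against 52.1% of all. Read the other way, 2.02% of the bins with no match were gaining, 2.73% of those with 1, 3.80% of those with 2 and 5.50% (4.20 to 7.18) of those with 3 or more.

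The AP-1 motif differed less. It was present in 80.8% of gaining bins and 78.3% of all, with 1.77 and 1.55 matches per bin (ratio 1.14), and 3.27% of bins with 3 or more matches were gaining against 2.19% of bins with none. The C/EBP motif was at the general level, in 35.3% of gaining bins and 33.5% of all, with 0.427 and 0.412 matches per bin. By the ratio of matches per bin, the cAMP response element (TGACGTCA) was above NF-κB, at 1.63, although few bins held it (6.09% of gaining bins and 3.80% of all). A C/EBP-ATF composite (TGATGCAA) was above AP-1, at 1.31, and was held by 13.6% and 11.03%. The other motifs searched, with ratios from 0.996 to 1.10, were ISRE (80.8% and 78.9%), STAT (TTCNNNGAA, 78.9% and 76.7%) and PU.1 (GAGGAAGT, 33.8% and 30.5%). The RUNX motif (TGTGGTT) was in 76.6% of gaining bins and 76.4% of all. The GATA motif, known from progenitor and erythroid enhancers (AGATAA), was in 93.4% and 91.1%. Some of these can overlap in 1 stretch, and each was counted on its own.

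In the 300 bases around the start, 11 of the 67 genes that start in gaining bins held an NF-κB match (16.4%, 9.42 to 27.1), against 5.09% of all 6232 promoters of peak bins. AP-1 matches were found in 10 (14.9%, 8.31 to 25.3) against 5.17%, and ISRE matches in 10 (14.9%) against 7.53%. A C/EBP match was found in 0 of 67, with an upper Wilson limit of 5.42%, against 1.93% of all. Higher than among all promoters were also PU.1 (7.46% against 3.37%), RUNX (8.96% against 4.24%), STAT (10.4% against 7.22%) and GATA (10.4% against 7.11%). Lower were the cAMP response element (1.49% against 3.19%) and the C/EBP-ATF composite (0 of 67 against 0.658%). Among the response genes with an NF-κB match were Tnfaip3, Il6, Bst2, Tlr2, Stx11 and Map3k8. The starts of Nfkb2, Bcl3, Acod1, Irf9, Cish, Pim1 and Ets2 held none of the 4 motifs in capitals above within this window, which says only that these letters are not in it.

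**Figure D5:**
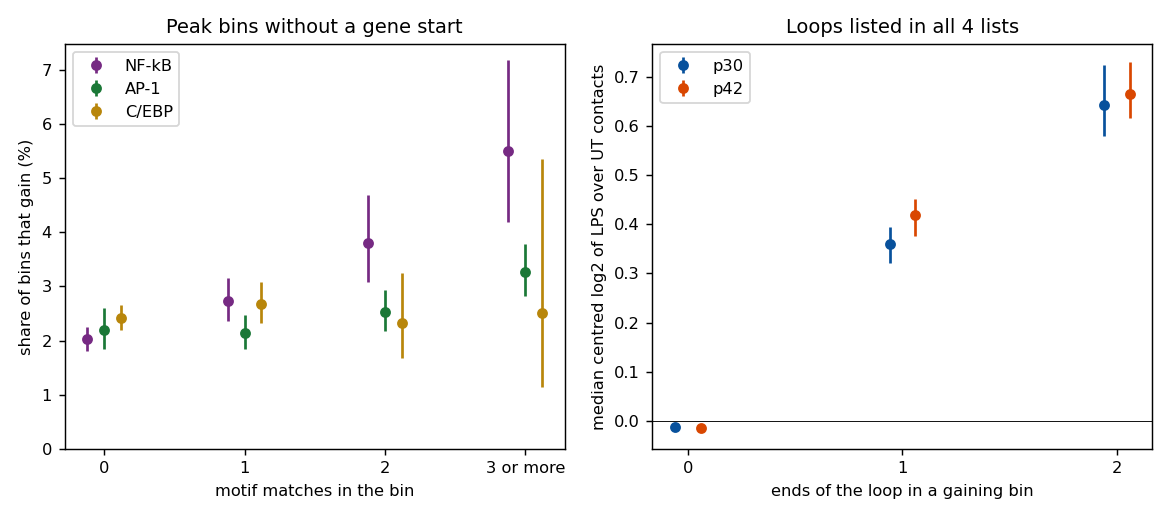
Left, share of peak bins without a gene start that were gaining (%), by the number of motif matches in the 5 kb bin, with 95% Wilson intervals; the NF-κB share went from 2.02% to 5.50%. Right, median centred log2 of LPS over UT contacts of loops in all 4 lists by the number of ends in gaining bins, with 95% intervals of the median, at 0.36 and 0.42 for 1 end and 0.64 and 0.66 for 2 ends.

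Gaining bins were found at every level of coverage and on all autosomes. In 10 equal classes of mean coverage, 1.63% to 2.94% of bins were gaining. The median change rose with coverage in p30, from -0.14 in the lowest class to 0.19 in the highest, and fell in p42 from 0.15 to -0.18. The share per chromosome was between 1.22% on chromosome 18 and 4.64% on chromosome 12 among autosomes, with 3.76% on chromosome 19, 3.42% on chromosome 16 and 1.29% on X. All 12 progenitor markers checked, among them Kit, Cd34, Gata2 and Runx1, started in a peak bin of all 4 lists. None of the 12 started in a gaining bin, where 1.08% of all genes did, and Erg and Runx1 were looped to one. Of the markers of other cell types, 0 of 6 T cell, 1 of 5 B cell (Cd79a), 1 of 2 hepatocyte (Apoa2), 0 of 4 epithelial and 0 of 4 fibroblast genes had such a peak. None of these started in a gaining bin, and Apoa2 was looped to one.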

How the data were processed

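H3K27ac HiChIP of 8 HPC-7 libraries was analysed from 4 interaction lists, 1 for each group of 2 replicates; how the authors pooled the replicates was not stated. The authors aligned reads to mm39 with BWA-MEM 0.7.17, removed duplicates with pairtools and called loops in 5 kb bins with FitHiChIP. The deposited values used were counts of contacts per loop and of reads per bin, a flag for an H3K27ac peak in the bin, the caller's expected contacts, and, as deposited, the fraction of modelled contacts expected for a pair and the q-value of each loop, all under 0.01. The files carry no column names, and the meaning of the columns was taken from the caller's usual order and the values. Of 26 columns, 12 were not used.

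Members and gene lists were chosen with earlier results of these data known. Genes and their canonical starts were those of GENCODE M39 on GRCm39, the same assembly as mm39. The bins, loops and gene starts were joined in Python 3.11.15 with pandas 2.3.3, numpy 2.4.6 and scipy 1.17.1, and plotted with matplotlib 3.10.9. The code was tested on simulated data. Loops of all lists were pooled to find looped genes and partners. Intervals are at 95%.

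The named genes were the 20 starts with the largest smaller-of-both gain, every response gene that starts in a gaining bin, the 5 clusters with most bins, the 10 response genes looped to most gaining bins among those that do not start in one, and the 5 bins without a gene start with the largest smaller-of-both gain. Other loci, among them Mir146, Pde4d, Gas7, Fgd2, Adora2a and Ly6e, were named after their values were seen. Alternatives changed the threshold, the centring, the peak rule, the low-coverage filter, the gene types and the loops used.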

Additional observations from a re-analysis of the deposited data

Results flagged for a closer look

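The p30 and p42 comparisons pointed in opposite directions for some values, and none of these differences was tested, since each group is 1 pooled list. Summed over the gaining bins, the log2 of LPS over UT loops was 0.84 in p30 and -0.24 in p42 with the full lists, but 0.74 in p42 with lists of equal size. The median log2 of LPS over UT reads as deposited at these bins was 0.50 in p30 and -0.077 in p42. The 10 response genes named for their loops were taken from those that do not start in a gaining bin, which leaves out genes that gained in both isoforms by construction, so the number with opposite signs among them is no result. The start bins of 5 had centred changes of opposite sign. Spred1 had 0.32 in p30 and -0.066 in p42. Nfkbia had 0.58 and -0.13, and Cflar, a caspase-8 inhibitor gene, 0.38 and -0.30. Swap70 had 0.34 and -0.16, and the chemokine gene Ccl9 0.048 and -0.32.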

How the results depend on the processing

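No paired analysis was possible because the replicates of each group were deposited as 1 list, and for the same reason no replicate could be left out. Of 123 alternative values of the main results, 88 stayed within the spread used for comparison, 33 moved and 2 reversed. The causes were not tested beyond what each setting changes by construction. Among the 88 are values that could not move: a peak flag in at least 1 list gave the same 706 bins. Autosomes alone gave 701 bins, of which 700 were shared, so the count of 88 is no measure of stability. At a threshold of 0.25 there were 1319 gaining bins, with medians of 0.48 in p30 and 0.42 in p42, 15.4% at or looped to a response gene and 17.8% of partners gaining. At 0.5 there were 297, with medians of 0.76 and 0.66, 52.5% next to another and 8.11% of partners gaining. Centring within 10 classes of coverage gave 806 bins with a p30 median of 0.58, of which 617 (76.6%) were among the 706. Centring by modelled contacts gave 185 bins, with medians of 0.94 and 0.47, 6.49% at a gene start, 48.1% next to another, 8.96% of partners gaining, and 4 loops per bin in p30 LPS and 3 in p42 UT. Gene starts of all types were in 24.8% of gaining bins (29.7% of all), and a start in the bin or an adjacent one in 21.4% (36.7%). Another gaining bin lay within 20 kb of 72.8%. Response genes were reached by 2.83% through a start in the bin alone and by 9.35% through loops in all 4 lists. Of partners, 11.7% gained with loops of 20 kb or more and 15.1% with a q-value under 0.001. The 2 reversals were the log2 of LPS over UT loops summed over gaining bins in p42, -0.24 as reported, 0.12 with modelled contacts and 0.74 with lists of equal size. With modelled contacts the median difference between the isoforms (p42 minus p30) at the 706 bins was -0.60 in place of -0.06. Lists of equal size gave 4 loops per gaining bin for p30 LPS and 2 for p42 UT, and loops with a q-value under 0.001 gave 1 before and 3 after LPS in p30 and 3 both before and after it in p42. Of the 34 named start bins, chosen for being high, 34 in p30 and 10 in p42 were at 0.35 or more when centred by modelled contacts (lowest p42 value 0.013, Map3k8), and 33 and 30 when centred within classes of coverage. Response genes starting in a gaining bin then numbered 6 and 16 of 136 in place of 20. Of all 6232 genes, 12 and 73 did so in place of 67. At thresholds of 0.25 and 0.5 the response genes numbered 28 and 9, and all genes 126 and 29.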

Other observations

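Some bins moved in opposite directions in the 2 isoforms. With the same value of 0.35, 67 bins (0.214% of all peak bins) gained in p30 and lost in p42. Another 65 (0.208%) lost in p30 and gained in p42, beside 706 (2.25%) that gained and 476 (1.52%) that lost in both. These counts rest on median centring, and scaling by modelled contacts shifts each bin by 0.20 in p30 and by -0.34 in p42.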
